A study of Homo sapiens with 25 samples.

Results

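The 10 genes described here set how mTORC1, the growth-promoting kinase complex at the lysosome, answers to amino acids and stress. Among them are the sestrins SESN1, SESN2 and SESN3, the stress-induced inhibitor DDIT4, the mTOR-binding inhibitor DEPTOR and the GATOR1 subunits DEPDC5, NPRL2 and NPRL3. CASTOR1, the arginine sensor, and RRAGD, a Rag GTPase, complete the 10. They were chosen by name, as 10 rows of a table of 36755 genes, and all 10 were among the 22994 genes with values high enough to test. RNA came from the line Jurkat, a human T-cell leukaemia grown in culture, held in medium with 100%, 50%, 25%, 12.5% or 0% histidine and collected on day 3 or day 6. On day 3 there were 2 libraries at 100% (replicates 1 and 3) and 3 at each of 50%, 25%, 12.5% and 0%. On day 6 there were 3 libraries at each of 100%, 50% and 25% and 2 at 12.5%, with no group at 0%. The 9 groups shared the same line, and the labels name no genetic change, no other agent and no clone. The labels do not say that replicates came from separate cultures, and the p-values therefore rest on a spread between libraries that may be technical only.

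Amino acids reach mTORC1 through the Rag GTPases. GATOR1 switches the Rags off, GATOR2 opposes GATOR1, and the sensor proteins sestrin and CASTOR1 bind GATOR2 and restrain it when leucine or arginine is short. A separate arm runs through the TSC complex, which turns off RHEB, the direct activator of mTORC1; DDIT4 (also called REDD1) acts on that arm, while DEPTOR binds mTOR itself. SESN2 and DDIT4 are both known targets of ATF4, the transcription factor of the amino acid stress response, and DDIT4 is also known as a target of hypoxia-inducible factors. RNA levels say nothing of whether a protein is bound or active, and mTORC1 activity was not measured in these data.

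SESN2 and DDIT4 moved in opposite directions under restriction, so the DNA just upstream of their start sites is shown for comparison. Both stretches run 5′ to 3′ on the gene's own strand, from 250 to 11 bases before the start site given by RefSeq (GRCh38.p14). SESN2 lies on the plus strand of chromosome 1, with its window at chr1:28259268-28259507 (GC content 64.6%), and DDIT4 on the plus strand of chromosome 10, at chr10:72273674-72273913 (GC content 68.8%). Capitals mark the only match found to any motif searched.
SESN2: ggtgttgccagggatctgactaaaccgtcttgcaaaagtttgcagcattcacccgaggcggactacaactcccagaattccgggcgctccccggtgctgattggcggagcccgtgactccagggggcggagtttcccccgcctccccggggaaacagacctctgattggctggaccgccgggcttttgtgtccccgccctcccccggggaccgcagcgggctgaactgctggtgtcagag
DDIT4: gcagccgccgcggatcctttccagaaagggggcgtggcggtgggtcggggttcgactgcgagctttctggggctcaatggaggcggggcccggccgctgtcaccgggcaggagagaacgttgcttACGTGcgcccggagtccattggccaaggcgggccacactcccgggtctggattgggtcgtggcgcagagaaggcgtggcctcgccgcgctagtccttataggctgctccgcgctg
The motifs searched, on both strands, were TGATGNAA (the C/EBP-ATF response element), ACGTG (the core of the hypoxia response element), CACGTG (the E-box, which contains ACGTG) and GTAAACA (the forkhead site). Over 34788 such windows in the RefSeq table, 3.04% held TGATGNAA, 17.7% ACGTG, 5.99% CACGTG and 2.85% GTAAACA. Windows were found for 8 of the 10 genes, all but DEPTOR and RRAGD, and the only match among them was ACGTG in DDIT4, at 125 to 121 bases before its start. A match is a run of letters and not a measured binding site, and the absence of a match in a window this short says nothing about the factor.

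Restriction to 50% moved none of the 10 genes past the test on either day, and each deeper step moved some. Called here means a Benjamini-Hochberg adjusted p under 0.05 from limma, a linear model fitted to log2(normalized count + 1) across all tested genes, and differences below are on that scale. Against 100% on day 3, 4 of the 10 were called at 25% (1 higher, 3 lower), where 19.5% of all tested genes were called (9.81% higher, 9.72% lower). At 12.5% it was 5 (1 higher, 4 lower) against a background of 26.2% (14.2% higher, 12% lower). At 0% it was 6 (1 higher, 5 lower) against 31% (14.8% higher, 16.1% lower). On day 6 it was 3 (1 higher, 2 lower) at 25%, where 20.2% of all genes were called (11% higher, 9.24% lower). At 12.5% on day 6 it was again 3 (1 higher, 2 lower), where 21.9% were (10.8% higher, 11.1% lower). The gene that rose was SESN2 in all 5 of these comparisons, and DDIT4 fell in all 5. At 50% the test called 0 of the 22994 genes on day 3 (background 0% in either direction) and 1, lower, on day 6 (0.00435%), and 1075 and 1098 genes had an unadjusted p under 0.05. The median difference of the 10 genes was -0.41 at 0% on day 3, beside -0.02 for all tested genes, and -0.24 at 12.5% on day 6, beside 0.00. The comparisons within a day share their 100% libraries, so they are not independent of each other.

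**Figure D1:**
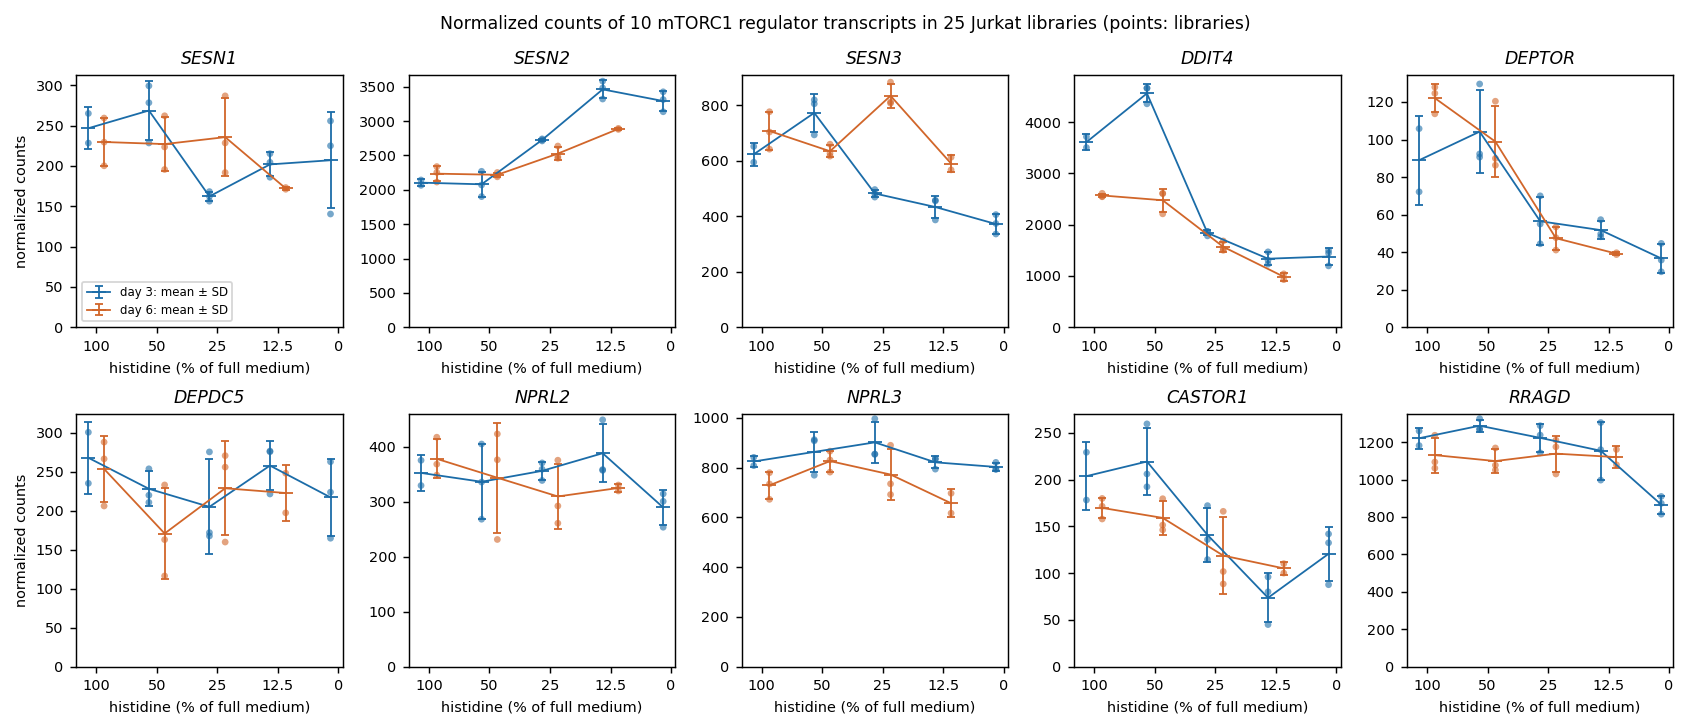
Normalized counts (vertical axis, linear) of the 10 regulators by histidine level in the medium (horizontal axis, percent of the full level), 1 panel per gene. Points are single libraries, bars the mean ± SD, blue day 3 and orange day 6. SESN2 runs from 2104 at 100% to 3461 at 12.5% on day 3, while DDIT4 runs from 3609 down to 1336 over the same levels, and the 3 GATOR1 subunits show no such course.

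SESN2, the stress-induced sestrin (ENSG00000130766.4, chromosome 1, 28259527 to 28282491, plus strand, GRCh38), rose on day 3 at 25% histidine and again at 12.5%. On day 3 it measured 2065 and 2143 normalized counts at 100%, 1901, 2269 and 2070 at 50%, and 2727, 2741 and 2711 at 25%. It then measured 3581, 3482 and 3321 at 12.5% and 3426, 3136 and 3313 at 0%. All 9 libraries at 25% and below lay above all 5 libraries at 50% and 100%, while the libraries at 12.5% and 0% overlapped. Against 100% the rise was 0.37 (SE 0.0683, adjusted p = 0.000196) at 25%, 0.72 (SE 0.0683, adjusted p = 7.68e-09) at 12.5% and 0.64 (SE 0.0683, adjusted p = 2.74e-08) at 0%, which is 1.3-fold, 1.64-fold and 1.56-fold. Between neighbouring levels on day 3, SESN2 rose by 0.39 from 50% to 25% (adjusted p = 1.77e-05) and by 0.34 from 25% to 12.5% (adjusted p = 0.000606). From 12.5% to 0% the difference was -0.07 (adjusted p = 0.468). The step from 25% to 12.5% was not called once the library's number in sample order, modulo 8, was a term of the fit (0.36, adjusted p = 0.0568). These numbers run group by group, so that term overlaps in part with the groups. In bulk RNA such as this, fewer cells with a transcript and less of it in each cell cannot be told apart.

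At 12.5% the rise of SESN2 was smaller on day 6 than on day 3. On day 6 it measured 2113, 2338 and 2253 at 100%, 2189, 2252 and 2214 at 50%, 2484, 2637 and 2459 at 25%, and 2879 and 2894 at 12.5%. The libraries at 25% lay above those at 100% and 50%, and those at 12.5% above them all. The rise at 12.5% was 0.37 (1.29-fold, SE 0.0683, adjusted p = 0.00019), and the one at 25% was 0.18 (1.13-fold, SE 0.0611, adjusted p = 0.0394). The call at 25% depended on single libraries: adjusted p was 0.186 without replicate 1 at 100%, 0.0765 without replicate 3 at 100%, 0.0608 without replicate 1 at 25% and 0.149 without replicate 2 at 25%, the library with heart muscle transcripts described at the end. It was lost too under quantile normalization (0.10, adjusted p = 0.228). The effect of 12.5% on day 6 minus that on day 3 was -0.35 (SE 0.0966, adjusted p = 0.0427), a difference called for 3.64% of all genes (1.28% higher, 2.36% lower) and, among the 10 regulators, for SESN2 only. That call was lost when any of 8 libraries was left out, with adjusted p of 0.166 and 0.0659 without replicates 1 and 3 at 100% on day 3, 0.101 and 0.0692 without replicates 1 and 2 at 12.5% on day 3, 0.102 and 0.0808 without replicates 2 and 3 at 100% on day 6, and 0.139 and 0.136 without replicates 1 and 2 at 12.5% on day 6. At 100% itself SESN2 differed between the days by 0.09 (adjusted p = 0.532), which total-sum scaling, where each library is divided by its sum, turned into 0.20 (adjusted p = 0.0426).

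SESN3, a sestrin known as a FOXO target (ENSG00000149212.11, chromosome 11, 95165513 to 95232541, minus strand), went the other way on day 3. It measured 652 and 595 normalized counts at 100%, 694, 820 and 806 at 50%, and 496, 469 and 481 at 25%. At 12.5% it measured 456, 458 and 387, and at 0% 406, 374 and 336. The 50% libraries were the highest of day 3 and lay apart from those at 100% (0.31, unadjusted p = 0.0099, adjusted p = 0.982), a difference that did not pass. Against 100% SESN3 fell by 0.53 at 12.5% (adjusted p = 0.000593) and by 0.75 at 0% (1.68-fold, SE 0.11, adjusted p = 5.56e-06). It fell by 0.37 at 25% (adjusted p = 0.0173), where the call was lost without replicate 1 at 100% (adjusted p = 0.169), without replicate 2 at 25% (adjusted p = 0.0513) and under total-sum scaling (-0.29, adjusted p = 0.0658). From 50% to 25% it fell by 0.68 (adjusted p = 7.39e-06).

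On day 6 the course of SESN3 was another. It measured 704, 777 and 642 at 100%, 660, 617 and 627 at 50%, 812, 808 and 884 at 25%, and 568 and 613 at 12.5%. The 25% libraries were the highest of that day and lay above all 3 at 100% (0.24, SE 0.0985, adjusted p = 0.0902), and those at 12.5% lay below them (-0.26, adjusted p = 0.101). Neither passed against 100%, although the first did without replicate 2 at 100% (0.31, adjusted p = 0.0497). Between neighbours, SESN3 rose by 0.39 from 50% to 25% (adjusted p = 0.00441) and fell by 0.50 from 25% to 12.5% (adjusted p = 0.0218). With the library number modulo 8 in the fit neither was called (adjusted p = 0.119 for the rise and 0.261 for the fall). The fall was not called with only the compared groups fitted (adjusted p = 0.228) or under quantile normalization (adjusted p = 0.052). The fall was lost without replicate 1 at 12.5% (adjusted p = 0.316), replicate 2 at 12.5% (0.128 as adjusted p) or replicate 3 at 25% (0.0593 as adjusted p). The effect of 25% differed between the days by 0.61 (SE 0.148, adjusted p = 0.0134), as day 6 minus day 3, and 4.72% of all genes were called in this comparison (2.71% higher, 2.01% lower). SESN3 was the only regulator of the 10 among them, and without replicate 1 at 100% on day 3 the difference was 0.54 (adjusted p = 0.0811).

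SESN1, a sestrin that can sense leucine (ENSG00000080546.13, chromosome 6, 108986437 to 109094819, minus strand), had its lowest group mean at 25% on day 3. On that day it measured 228 and 265 normalized counts at 100%, 278, 299 and 228 at 50%, 156, 162 and 168 at 25%, 215, 186 and 204 at 12.5%, and 140, 225 and 256 at 0%. The 25% libraries lay close together and below all others of that day but 1 of those at 0%. The fall at 25% against 100% was 0.60 (log2 difference -0.60, 1.51-fold, adjusted p = 0.0417) and the call was lost whichever of the 5 libraries was left out, with adjusted p between 0.0673 without replicate 3 at 25% and 0.28 without replicate 3 at 100%. The fall from 50% to 25% was 0.72 (1.64-fold, adjusted p = 0.00493). On day 6 SESN1 measured 230, 259 and 200 at 100%, 224, 262 and 196 at 50%, 192, 287 and 228 at 25%, and 171 and 173 at 12.5%. The libraries at 12.5% were the lowest of that day, at -0.41 against 100% (adjusted p = 0.185). By group means on day 3, SESN2 rose from 25% down, SESN3 fell from 25% down, and SESN1 was lowest at 25%. For SESN1 the difference of 12.5% from 25% was 0.31 (adjusted p = 0.363) and did not pass. SESN1 at 0% was not compared with 25%, so a low point at 25% was not established.

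DDIT4, the TSC-side inhibitor (ENSG00000168209.4, chromosome 10, 72273920 to 72276036, plus strand), fell on both days, and its libraries ranged 5.02-fold from lowest to highest. On day 3 it measured 3715 and 3503 normalized counts at 100%, 4664, 4658 and 4356 at 50%, 1867, 1781 and 1866 at 25%, 1308, 1230 and 1470 at 12.5%, and 1497, 1196 and 1444 at 0%. All 9 libraries at 25% and below lay under all 5 at 50% and 100%. Against 100% DDIT4 fell by 0.97 at 25% (1.96-fold, adjusted p = 1.27e-08), 2.71-fold at 12.5% (adjusted p = 5.14e-12) and by 1.39 at 0% (2.63-fold, adjusted p = 4.69e-12). At 50% all 3 libraries lay above both at 100%, by 0.34 (SE 0.0927, unadjusted p = 0.00124), but the adjusted p was 0.734. From 50% to 25% DDIT4 fell by 1.31 (2.48-fold, adjusted p = 3.73e-12). From 25% to 12.5% DDIT4 fell by 0.46 (adjusted p = 0.00063), and from 12.5% to 0% the difference was 0.04 (adjusted p = 0.785).

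DDIT4 was lower on day 6 than on day 3 before any restriction. At 100% it measured 2611, 2553 and 2544 on day 6, below both day 3 libraries, a fall of 0.49 (1.4-fold, adjusted p = 0.000935). DDIT4 was the only regulator of the 10 called between the days at 100%, where 8.66% of all genes were (2.93% higher, 5.73% lower), and a term for the library number modulo 8 left it at -0.43 (adjusted p = 0.0545). At 50% on day 6 it measured 2611, 2605 and 2211, at 25% 1682, 1523 and 1500, and at 12.5% 928 and 1041. The 12.5% libraries were the lowest of all 25. Against 100% of day 6 the fall was 0.71 at 25% (1.64-fold, SE 0.0829, adjusted p = 3.51e-07) and 2.61-fold at 12.5% (SE 0.0927 on the log2 scale, adjusted p = 1.93e-11). From 50% to 25% DDIT4 fell by 0.66 (adjusted p = 1.28e-06), and from 25% to 12.5% it fell by 0.67 (adjusted p = 0.000136), which was not called with only those 2 groups in the fit (adjusted p = 0.0699). The difference between the days in the effect of 12.5% was 0.05, with a 95% interval from -0.22 to 0.32 (adjusted p = 0.908). In the order of group means, DDIT4 went from 50% and 100% on day 3, through 100% and 50% on day 6, 25% on day 3, 25% on day 6, and 0% and 12.5% on day 3, to 12.5% on day 6. In that order only 100% and 50% on day 6, and 0% and 12.5% on day 3, overlapped with their neighbour.

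DEPTOR, the inhibitor bound to mTOR (ENSG00000155792.9, chromosome 8, 119873717 to 120050913, plus strand), fell at low values. On day 3 it measured 72.2 and 106 normalized counts at 100%, 90.6, 92.3 and 130 at 50%, 70, 44.5 and 55 at 25%, 48.2, 49.7 and 57.3 at 12.5%, and 29.6, 44.7 and 35.8 at 0%. On day 6 it measured 128, 114 and 125 at 100%, 120, 86.3 and 90 at 50%, 53.4, 41.1 and 47.7 at 25%, and 39.7 and 38.7 at 12.5%. On both days every library at 25% and below lay under every library at 50% and 100%. The fall was 1.25 at 0% on day 3 (2.38-fold, SE 0.264, adjusted p = 0.000501), 1.35 at 25% on day 6 (2.55-fold, SE 0.236, adjusted p = 0.000112) and 1.61 at 12.5% on day 6 (3.06-fold, SE 0.264, adjusted p = 4.38e-05). At 25% on day 3 the difference was -0.64 (adjusted p = 0.0927). At 12.5% on day 3 it fell by 0.75 (adjusted p = 0.0364), a call lost without replicate 3 at 100% (-0.48, adjusted p = 0.368), without replicate 1 at 12.5% (adjusted p = 0.0898) and without replicate 2 at 12.5% (adjusted p = 0.0783). The day difference in the effect of 12.5% was -0.86 (SE 0.373, adjusted p = 0.248) and did not pass. Between neighbours DEPTOR fell from 50% to 25% on both days, by 0.88 on day 3 (adjusted p = 0.00681) and by 1.04 on day 6 (adjusted p = 0.00194), where 23.8% and 20.9% of all genes were called. The day 3 call was lost without replicate 2 at 25% (adjusted p = 0.0509) and without replicate 3 at 50% (adjusted p = 0.0566).

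**Figure D2:**
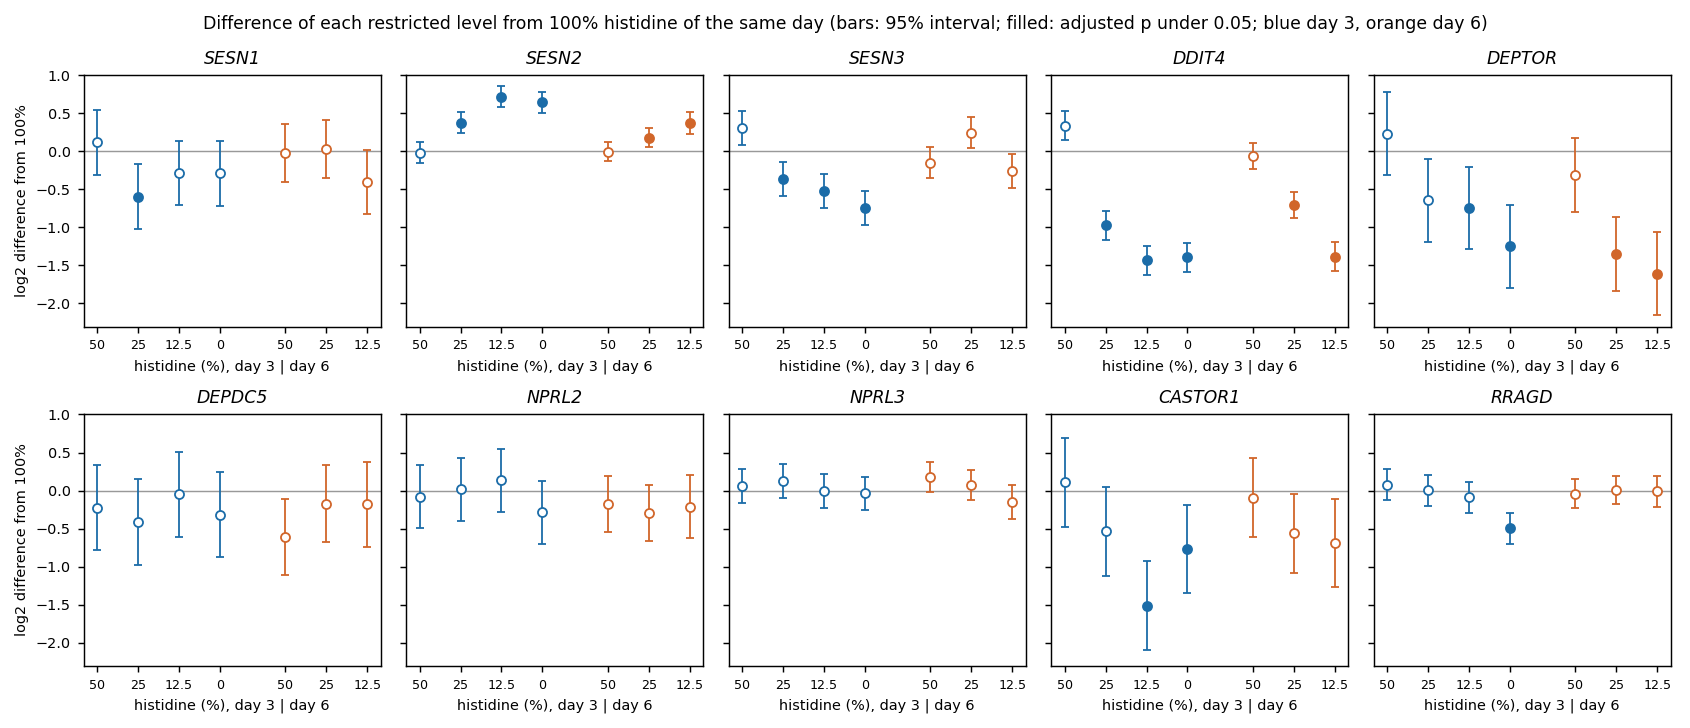
Log2 difference (vertical axis, log2(normalized count + 1) scale) of each regulator from 100% histidine of the same day, by restricted level (horizontal axis, percent histidine), with day 3 in blue and day 6 in orange. Points are limma estimates, lines their 95% intervals, and filled points have an adjusted p under 0.05. SESN2 is the only gene with filled points above 0, reaching 0.72 at 12.5% on day 3, and DDIT4, DEPTOR and CASTOR1 reach below -1.

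The GATOR1 subunits, which together switch off RAGA and RAGB, were called in none of the 16 comparisons made. DEPDC5, the largest of them (ENSG00000100150.17, chromosome 22, 31753867 to 31908033, plus strand), measured 235 and 301 normalized counts at 100% and 263, 165 and 224 at 0% on day 3, and 206, 267 and 288 at 100% and 197 and 248 at 12.5% on day 6. Over all 25 libraries its values spanned 2.59-fold, and the groups overlapped in each of these pairs. NPRL2 (ENSG00000114388.12, chromosome 3, 50347330 to 50351091, minus strand) measured 330 and 376 at 100% and 301, 315 and 254 at 0% on day 3, and 349, 369 and 418 at 100% and 320 and 331 at 12.5% on day 6. Its restricted libraries lay below those at 100% in both pairs, but the differences did not pass. NPRL3 (ENSG00000103148.15, chromosome 16, 84271 to 138860, minus strand) measured 841 and 808 at 100% and 793, 821 and 794 at 0% on day 3, and 779, 672 and 734 at 100% and 616 and 696 at 12.5% on day 6. Its spread over all libraries was 1.62-fold, the smallest of the 10. The 95% intervals of the effect of 0% on day 3 were -0.88 to 0.24 for DEPDC5, -0.70 to 0.13 for NPRL2 and -0.26 to 0.18 for NPRL3. For 12.5% on day 6 they were -0.74 to 0.38, -0.63 to 0.20 and -0.37 to 0.07. The lowest group mean of DEPDC5 was at 50% on day 6 (libraries at 233, 116 and 163), at -0.61 against 100% (unadjusted p = 0.0191, adjusted p = 0.933). Exons of NPRL2 overlap CYB561D2, and exons of NPRL3 overlap MPG, both on the opposite strand and both with values in the table. Whether the counting used strand is not given in the sources used here, so these 2 subunits are less certain. Exons of DEPDC5 overlap Z82190.2, and those of CASTOR1, described next, overlap AC004997.1. Both are protein-coding genes on the same strand without values in the table. Strand cannot separate such reads, so DEPDC5 and CASTOR1 are less certain too. Exons of SESN1, SESN3, DDIT4 and DEPTOR overlap AL390208.1, AP000787.1, DDIT4-AS1 and AP005717.1, in that order. These lie on the opposite strand and have no values in the table. The open question of strand in the counting applies to SESN1, SESN3, DDIT4 and DEPTOR as well.

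CASTOR1, the arginine sensor (ENSG00000239282.7, chromosome 22, 30285117 to 30289627, minus strand), had its lowest group mean at 12.5% on day 3. On that day it measured 178 and 229 normalized counts at 100%, 260, 206 and 192 at 50%, 172, 136 and 114 at 25%, 95.9, 44.9 and 80 at 12.5%, and 87.6, 132 and 142 at 0%. The 12.5% libraries lay below all at 25%, 50% and 100%, and overlapped with those at 0%. The fall at 12.5% was 1.51 (2.85-fold, SE 0.282, adjusted p = 0.000161). At 0% it fell by 0.77 (adjusted p = 0.0386), a call lost without replicate 1 at 0% (-0.56, adjusted p = 0.178), replicate 1 at 100% (-0.95, adjusted p = 0.0558) or replicate 3 at 100% (-0.59, adjusted p = 0.279). CASTOR1 rose by 0.74 from 12.5% to 0% (adjusted p = 0.0359), and this was lost without replicate 2 or 3 at 0% (adjusted p = 0.122 and 0.148) and was 0.43 (adjusted p = 0.277) without replicate 2 at 12.5%, the library at 44.9. From 25% to 12.5% it fell by 0.98 (adjusted p = 0.0149), which was lost without that same library (-0.66, adjusted p = 0.121) and without replicate 1 at 25% (-0.82, adjusted p = 0.086). On day 6 it measured 172, 180 and 158 at 100%, 146, 151 and 180 at 50%, 166, 88.4 and 102 at 25%, and 100 and 110 at 12.5%. The 12.5% libraries lay below those at 100%, by 0.69 on the log2 scale (log2 difference -0.69, adjusted p = 0.0871), and neither that nor the -0.56 at 25% (adjusted p = 0.126) passed. Without replicate 1 at 25% the latter was -0.83 (adjusted p = 0.027), and with only the compared groups fitted the former was called (adjusted p = 0.0203).

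RRAGD, a Rag GTPase that pairs with RAGA or RAGB and a known target of the TFE3 and TFEB factors (ENSG00000025039.14, chromosome 6, 89364636 to 89412270, minus strand), was called against 100% only at 0%. It measured 1182 and 1260 normalized counts at 100%, 1271, 1326 and 1267 at 50%, 1238, 1288 and 1143 at 25%, 1160, 1305 and 997 at 12.5%, and 873, 910 and 815 at 0% on day 3. On day 6 it measured 1094, 1237 and 1061 at 100%, 1169, 1051 and 1077 at 50%, 1175, 1211 and 1030 at 25%, and 1079 and 1161 at 12.5%. All 3 libraries at 0% lay below each of the other 22. The fall at 0% was 0.50 against 100% (1.41-fold, SE 0.1, adjusted p = 0.000313) and 0.41 against 12.5% (1.33-fold, adjusted p = 0.00132), a step at which 21% of all genes were called. On day 6 the difference at 12.5% was -0.01, with a 95% interval from -0.22 to 0.19.

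Counted over the steps between neighbouring levels, 5 of the 10 regulators were called from 50% to 25% on day 3 (SESN2 higher; SESN1, SESN3, DDIT4 and DEPTOR lower), where 23.8% of all genes were (11.4% higher, 12.5% lower). From 25% to 12.5% on day 3 it was 3 (SESN2 higher, DDIT4 and CASTOR1 lower) against 8.22% (5.41% higher, 2.81% lower). From 12.5% to 0% it was 2 (CASTOR1 higher, RRAGD lower) against 21% (8.5% higher, 12.5% lower). On day 6 it was 4 from 50% to 25% (SESN2 and SESN3 higher, DDIT4 and DEPTOR lower) against 20.9% (10.6% higher, 10.3% lower). From 25% to 12.5% on day 6 it was 2 (SESN3 and DDIT4 lower) against 0.874% (0.204% higher, 0.67% lower). The SESN2 rise from 50% to 25% on day 6, 0.19 (adjusted p = 0.0286), was lost without replicate 2 at 25% (adjusted p = 0.115) and without replicate 1, 2 or 3 at 50% (adjusted p = 0.0777, 0.0509 and 0.072).

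**Figure D3:**
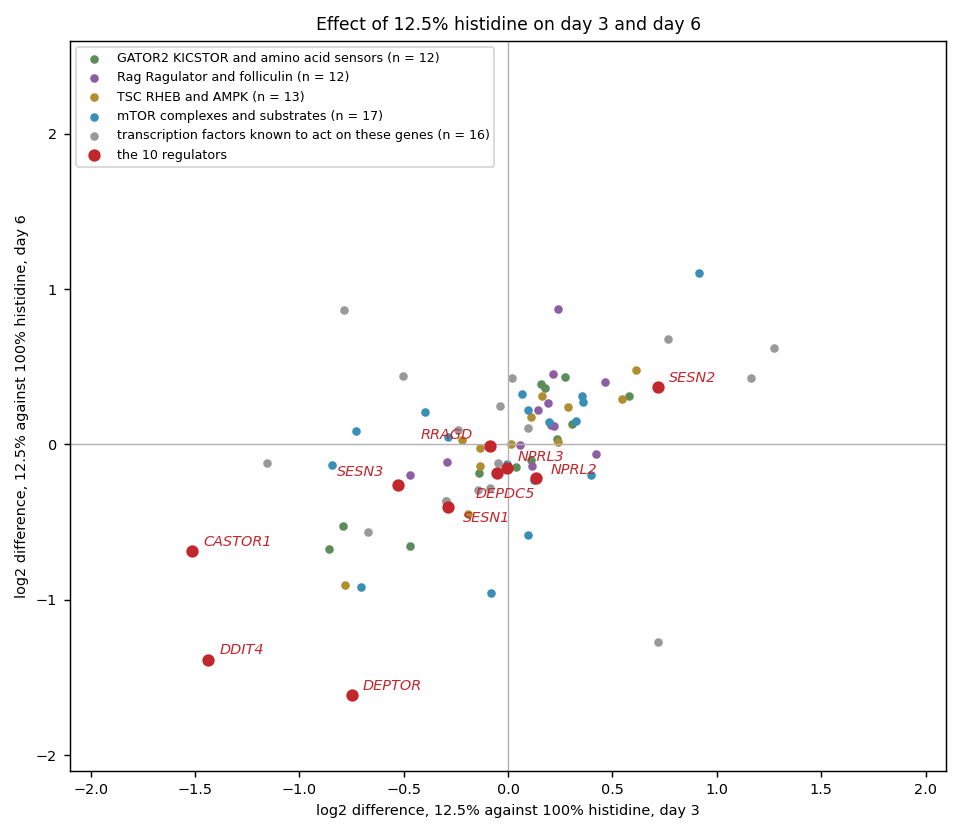
Log2 difference of 12.5% from 100% histidine on day 3 (horizontal axis) and on day 6 (vertical axis), both on the log2(normalized count + 1) scale, for the 10 regulators (labelled) and the genes of 5 pathway lists. Each point is 1 gene, and the grey lines mark no difference. DDIT4 is far below 0 on both axes, SESN2 is at 0.72 and 0.37, and CASTOR1 is at -1.51 on day 3 and -0.69 on day 6.

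Of the rest of the pathway, the amino acid sensing arm split by subunit. Among 12 genes of GATOR2, KICSTOR (the scaffold that holds GATOR1 at the lysosome) and other sensors, 4 rose and 2 fell at 0% on day 3, with a median of 0.10 beside -0.02 for all genes, and 2 rose and 3 fell at 12.5% on day 6 (median -0.03). As the background for this list and the 4 that follow, 31% of all genes were called at 0% on day 3 (14.8% higher, 16.1% lower) and 21.9% at 12.5% on day 6 (10.8% higher, 11.1% lower). The GATOR2 subunits MIOS and WDR59 fell at 0%, MIOS from 489 to 282 normalized counts (-0.80, adjusted p = 0.000195) and WDR59 from 2694 to 1727 (-0.64, adjusted p = 9.31e-07). The KICSTOR subunit KPTN rose from 532 to 839 (0.65, adjusted p = 6.35e-05). CASTOR2, the paralogue of CASTOR1, rose from 1015 to 1355 at 0% on day 3 (adjusted p = 0.000171) and from 989 to 1337 at 12.5% on day 6 (adjusted p = 0.000173). On day 6 MIOS fell again, from 461 to 288 (-0.67, adjusted p = 0.00199), the KICSTOR subunit KICS2 fell from 487 to 311 (-0.65, adjusted p = 0.00233) and ITFG2, also of KICSTOR, rose from 391 to 512 (0.39, adjusted p = 0.0126).

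Genes of the Rag GTPases, Ragulator (their lysosomal anchor) and folliculin numbered 12. At 0% on day 3, 7 rose and 1 fell (median 0.31), and at 12.5% on day 6, 3 rose and none fell (median 0.12), beside the background of 31% and 21.9% of all genes. LAMTOR1, the Ragulator subunit that ties it to the membrane, rose from 1018 to 1749 at 0% (0.79, adjusted p = 8.24e-07). RRAGB, a partner of RRAGD, rose from 346 to 569 (0.72, adjusted p = 8.87e-05) where RRAGD fell, and FNIP2, a folliculin partner, fell from 762 to 554 (-0.47, adjusted p = 0.00316). At 12.5% on day 6 LAMTOR3 rose from 288 to 513 (0.87, adjusted p = 0.00146) and RRAGB from 305 to 418 (0.45, adjusted p = 0.0121).

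Of 13 tested genes of TSC, RHEB and AMPK, the energy-sensing kinase upstream of TSC, 1 rose and 1 fell at 0% on day 3, and 1 rose and 2 fell at 12.5% on day 6, no larger a share on day 3 than the 31% of all genes and close to the 21.9% on day 6. PRKAA2, an AMPK catalytic subunit, fell from 398 to 122 at 0% (-1.70, adjusted p = 3.55e-08) and from 422 to 226 at 12.5% on day 6 (-0.91, adjusted p = 0.000513). STK11, the kinase that activates AMPK, rose from 1543 to 2117 (0.46, adjusted p = 0.000375) and from 1512 to 2108 (0.48, adjusted p = 0.000409). PRKAG1, an AMPK regulatory subunit, fell from 1354 to 984 on day 6 (-0.45, adjusted p = 0.00362).

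Among 17 genes of the mTOR complexes and their substrates, 6 rose and 1 fell at 0% on day 3 (median 0.08), and 4 rose and 3 fell at 12.5% on day 6, beside 31% and 21.9% of all genes. TFE3, a transcription factor kept out of the nucleus by mTORC1, rose from 738 to 1498 (1.01, adjusted p = 2.24e-07) and from 708 to 1512 (1.10, adjusted p = 1.4e-07). ULK1, the autophagy kinase inhibited by mTORC1, rose from 3118 to 5191 (0.73, adjusted p = 8.01e-10) and from 2767 to 3461 (0.32, adjusted p = 0.000419). MTOR itself fell from 2714 to 2081 at 0% (-0.38, adjusted p = 0.0104). On day 6 PRR5, an mTORC2 subunit, fell from 219.7 to 113 (-0.96, adjusted p = 0.0042), and EIF4EBP3, a translation repressor of the 4E-BP family, fell from 300.4 to 159 (-0.92, adjusted p = 3.19e-05).

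Among 16 transcription factors known to act on these regulators, 6 rose and 3 fell at 0% on day 3 (median 0.16), and 4 rose and 3 fell at 12.5% on day 6 (median 0.10), beside 31% and 21.9% of all genes. CEBPG, a dimer partner of ATF4, rose from 2134 to 4368 (1.03, adjusted p = 4.68e-13) and from 3047 to 4681 (0.62, adjusted p = 2.09e-08). DDIT3 (CHOP), a stress factor downstream of ATF4, fell from 1161 to 477 at 12.5% on day 6 (-1.27, adjusted p = 1.56e-08). On day 3 it rose instead, from 326 at 100% to 538 at 12.5% (0.72, adjusted p = 5.64e-05) and 543 at 0% (0.73, adjusted p = 3.18e-05). Its level at 100% was 3.52-fold higher on day 6 than on day 3 (adjusted p = 1.57e-10), and the effect of 12.5% on day 6 minus that on day 3 was -1.99 (adjusted p = 5.12e-08). ATF3, another stress factor, fell from 772 to 359 at 0% (-1.09, adjusted p = 1e-06). NOTCH1 fell from 2873 to 1450 at 0% (-0.99, adjusted p = 3.84e-09) and from 2495 to 1682 on day 6 (-0.56, adjusted p = 5.42e-05). At 50% none of the genes of these 5 lists was called on either day.

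**Figure D4:**
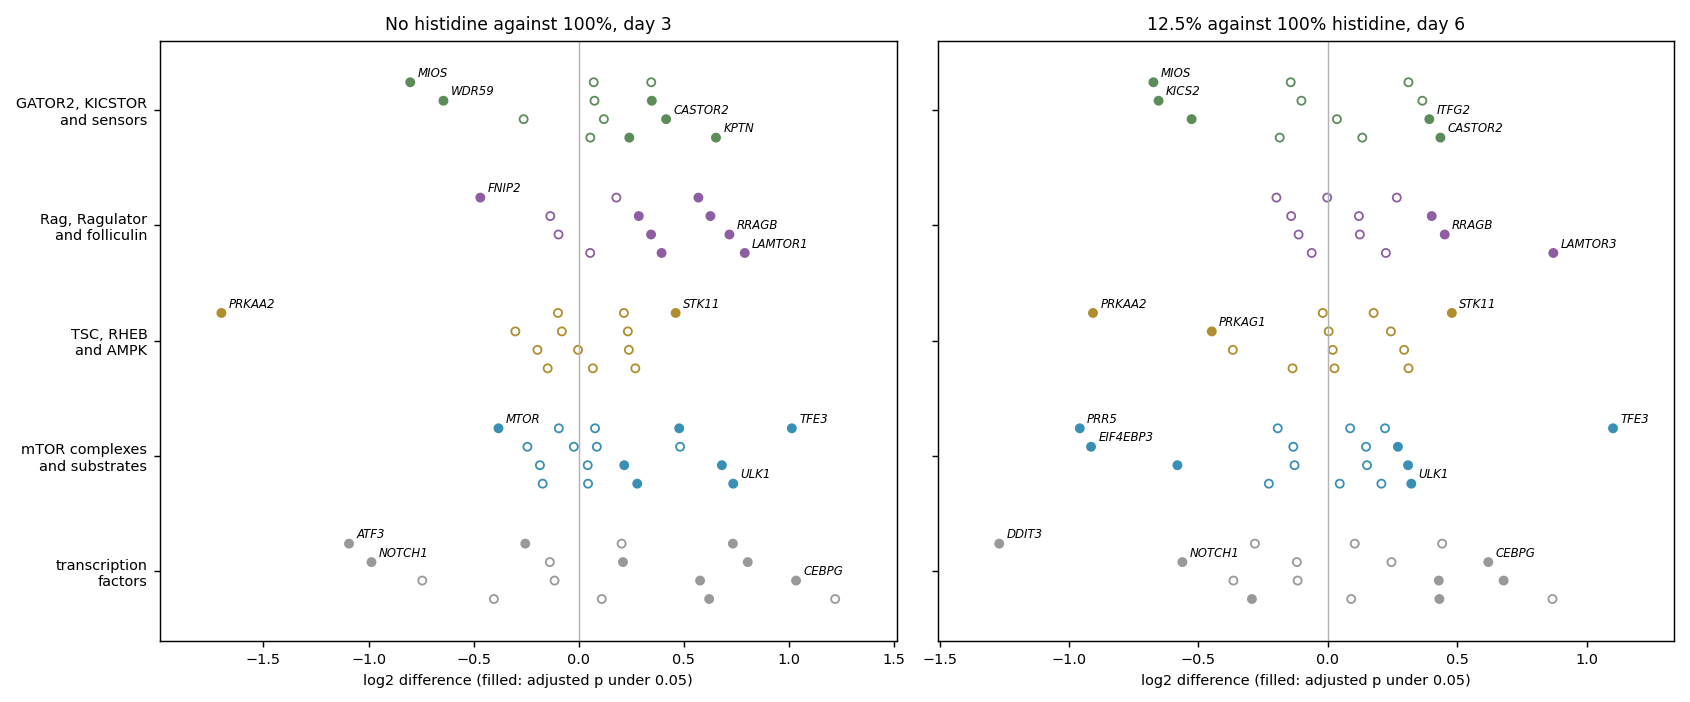
Log2 difference (horizontal axis, log2(normalized count + 1) scale) of the genes of 5 pathway lists (rows, with an offset within a row for legibility) at 0% against 100% histidine on day 3 and at 12.5% against 100% on day 6. Each point is 1 gene, filled where the adjusted p is under 0.05, with the genes named in the text labelled. TFE3 and CEBPG are at 1.01 and 1.03 on day 3, and PRKAA2 is the lowest gene of day 3 at -1.70.

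For each regulator, the genes with the most similar course were taken as those with the highest Pearson r of the 9 group means of log2(normalized count + 1), out of 13086 genes with a mean of at least 50. The groups share a day or a level and the genes share all libraries, so these values only describe. For SESN2 they were IFT27 (0.985), TMBIM6 (0.985) and MAPKAPK5-AS1 (0.982). For DDIT4 they were NDRG2 (0.99), APLN (0.986) and MLKL (0.986), and for DEPTOR KIAA1549L (0.992), BNIP3 (0.984) and PM20D2 (0.981). SESN3 was closest to FOXD2-AS1 (0.961), SESN1 to ZNF16 (0.971), CASTOR1 to VWCE (0.977) and RRAGD to AUNIP (0.984). The 3 GATOR1 subunits had lower best values, 0.894 for DEPDC5 with MMP14, 0.881 for NPRL2 with DNMT1 and 0.945 for NPRL3 with DSCAML1.

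Markers of T cells were present in every library, with CD3E between 15440 and 30630 normalized counts and LCK between 11510 and 18630. The sum of 8 T-cell markers was higher under restriction, from 45070 to 48020 at 100% to 69200 to 71670 at 0% on day 3 and 55860 to 56750 at 12.5% on day 6, a sum to which CD3E and LCK gave most. CD247, CD7 and CD28 of the same list had their highest libraries at 50% or 100%. The sum of 5 B-cell markers went from 219.9 to 272.5 at 100% on day 3 to 565 to 681.4 at 25%, nearly all of it CD79A, with MS4A1 at 0 in 19 of 25 libraries. The part of either in the changes of SESN2, DDIT4 and SESN3 was not tested. The sum of 5 erythroid markers lay between 3530 and 5042 at 50% on day 3, against 281.1 to 527.5 at 100% and 225.6 to 360.2 at 25%, so it was lower at 25% than at 50% on that day. It reached 3832 at 12.5% and 4933 at 0% on day 3, and 3842 at 50% and 4949 at 25% on day 6, in some libraries of those groups only. ALAS2, the haem synthesis enzyme of red cell precursors, was at 0 in 6 of 25 libraries. The part of these transcripts in the changes from 50% to 25% on day 3 was not tested. The sum of 6 fibroblast and matrix markers was 2267 to 3896 at 50% and 5403 to 13130 at 25% on day 6, without overlap, and 5339 to 11160 at 100%. COL1A1, a type I collagen chain, was between 539.1 and 5519 over all libraries, and the part of this list in the changes of SESN2, SESN3, DDIT4 and DEPTOR from 50% to 25% on day 6 was not tested. MYH7, a myosin of heart muscle, stood at 18210 normalized counts in replicate 2 at 25% on day 6, and the sum of 5 heart markers was 113.3 to 129 at 100% and 37.34 to 42.05 at 12.5% on day 6. TNNT2, the heart troponin, was at 0 in 20 libraries. Without that library DDIT4 fell by 0.69 at 25% on day 6 and DEPTOR by 1.25, both still called, and SESN1 was at -0.13 in place of 0.03, called in neither.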

How the data were processed

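Strand-specific Illumina libraries were made from total RNA purified on QIAGEN columns, per the labels' protocols. Per the submitters' processing notes, FastQC 0.11.9, kallisto 0.50.1, DESeq2 1.44.0 and the build GRCh38 were used, with an annotation not given in the sources used here. Values deposited by the authors are a normalized signal, gene counts scaled per library. Low values, up to 20 reads, were whole multiples of 1 read (tolerance 0.05) in 55.6% to 75.5% of cases per library, so reads were not recovered, no count model was run, and depth is unknown. No pair of libraries held identical values.

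Groups came from the labels. The model was limma 3.58.1 (R 4.3.3) on log2(value + 1) (9 groups, 25 libraries, 1 shared estimate of the spread, trended and robust moderation) for genes with at least 10 in at least 2 libraries. Fold changes understate the change of genes with low values. Benjamini-Hochberg adjustment was made separately for 16 comparisons: each level against 100%, neighbouring levels, day 6 against day 3 at 100%, and the day difference of each effect. Code was tested on simulated data. Alternatives were a pseudocount of 0.5 or 10, no filter, a mean of at least 50, only the compared groups, a replicate block, the library number modulo 8 as a term, total-sum scaling, quantile normalization, and leaving out each library.

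The 10 genes, the pathway and marker lists and the tests were chosen with earlier results of these data known. Named pathway genes were the 2 largest rises and the 2 largest falls called in each list, at 0% on day 3 and at 12.5% on day 6, each against 100%, apart from a gene not reported here; DDIT3 on day 3 and between the days was added after its values were seen. Gene coordinates are from GENCODE 29 on GRCh38, counted from 1.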

Additional observations from a re-analysis of the deposited data

Results flagged for a closer look

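The effect of 12.5% histidine on SESN2, as log2(value + 1) against 100% of the same day, differed between the days by -0.35 (SE 0.0966, limma adjusted p = 0.0427), with 0.72 on day 3 and 0.37 on day 6. It is listed because the difference itself passed a test, and leaving out any of 8 single libraries ended the call.

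The effect of 25% histidine on SESN3 differed between the days by 0.61 (SE 0.148, limma adjusted p = 0.0134), with -0.37 on day 3 and 0.24 on day 6. It too is listed because the difference itself passed a test. The call was lost with the library number modulo 8 in the fit (0.65, limma adjusted p = 0.0917) and without replicate 1 at 100% on day 3 (0.54).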

How the results depend on the processing

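Of 2470 values of the 10 regulators under the alternatives, 2382 kept their side of the threshold, 80 lost a call and 8 gained a call. No called value changed sign, while some uncalled differences near 0 did. The calls of DDIT4 against 100% at 25% and below on both days, of SESN2 at 25% and below on day 3, and of DEPTOR on day 6 held in all settings run. The cause of the changes below was not tested. Library numbers run group by group, so the modulo 8 term overlaps in part with the groups. It also leaves fewer degrees of freedom for the spread.

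With the library number modulo 8 in the fit, the number of regulators called went from 4 to 2 at 25% against 100% on day 3, from 3 to 1 at 12.5% against 25% on day 3, from 2 to 1 at 0% against 12.5%, from 4 to 2 at 25% against 50% on day 6, from 2 to 1 at 12.5% against 25% on day 6, from 1 to 0 between the days at 100%, and from 1 to 0 for the day differences of 25% and of 12.5%. Total-sum scaling gave 2 at 25% against 100% on day 3, 2 between the days at 100% and 2 for the day difference of 25%; it moved the median of all genes by 0.0734, 0.114 and -0.0941 in these comparisons, the only shift over 0.1 being that between the days at 100%. With the fit limited to the compared groups, the number was 1 at 0% against 12.5%, 0 at 12.5% against 25% on day 6 and 0 for the day difference of 12.5%. Quantile normalization gave 1 at 12.5% against 25% on day 6, and no filter gave 0 for the day difference of 12.5%. Leaving out single libraries gave 2 to 3 at 25% against 100% on day 3, 2 to 3 at 12.5% against 25% on day 3, 1 to 2 at 0% against 12.5%, 1 to 2 at 12.5% against 25% on day 6, and 0 to 1 for the day differences of 25% and of 12.5%. Where 1 library was left in a group, it was taken to vary like the other groups.

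Whether the replicate numbers pair the samples was not settled. Deviations of same-numbered libraries in different groups had a median r of 0.00128 (92 pairs, 1 over 0.1, highest 0.192). Those of libraries with other numbers had a median r of 0.000367 (185 pairs, 1 over 0.1, highest 0.106). Of the 25 libraries, 7 matched best with their own number. With so few libraries per group, such deviations cannot exclude a paired design. With a replicate block, the day difference of 12.5% had 0 regulators called in place of 1 (SESN2 at -0.34, adjusted p = 0.0582), and DEPTOR at 12.5% and CASTOR1 at 0% on day 3 were not called (adjusted p = 0.06 and 0.0633).

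Over all genes, the library number modulo 8 took the count of calls from 7123 to 4725 at 0% against 100%, from 4490 to 2350 at 25% against 100% on day 3, from 5475 to 3183 at 25% against 50% on day 3, from 1889 to 238 at 12.5% against 25% on day 3, from 4818 to 2723 at 0% against 12.5%, from 4645 to 3012 and from 4807 to 2432 at 25% against 100% and 50% on day 6, from 201 to 32 at 12.5% against 25% on day 6, from 1991 to 720 between the days at 100%, and from 1086 to 407 and 836 to 549 for the day differences of 25% and 12.5%. Leaving out single libraries took these to as few as 2954, 1135 and 588 at 25% against 100% and 12.5% against 25% on day 3 and between the days, to 74 to 322 at 12.5% against 25% on day 6, to 3175 of 5036 at 12.5% against 100% on day 6, and to 654 and 379 for the day differences. Quantile normalization gave 1232 at 12.5% against 25% on day 3, and fitting only the compared groups gave 12 at that step on day 6. At 50% against 100% the counts lay between 0 and 5 on day 3, 0 and 17 on day 6, and 0 and 5 for the day difference. Depth is unknown, so counting error at low values such as those of DEPTOR and CASTOR1 cannot be given.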
